A study of Homo sapiens with 6 samples.

Results

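The BCL2 family of apoptosis regulators was examined through 10 members, taken by gene symbol from the 60676 genes of the deposited tables, and all of them were expressed highly enough to be tested. HT29 cells, an established human colorectal adenocarcinoma line labelled as wild type, spent 48 h in control medium (called untreated) or in medium lacking either histidine or tryptophan. The mRNA of 2 samples per condition was sequenced, 6 libraries in all, and whether the samples were separate cultures is not stated, so the p-values measure the spread between these samples, which may be technical. The histidine-free medium was made on an RPMI 1640 base and the tryptophan-free medium on a DMEM F-12 base. For the RNA samples the base of the control medium is not named. In the proteomics experiments of the study, which used the same depletions, the control was complete RPMI 1640. Both depleted media held dialyzed serum, and the serum of the control medium of the RNA samples is not named. An effect of the base medium or of the serum therefore cannot be told apart from the missing amino acid.

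The BCL2 family decides whether the outer membrane of the mitochondrion stays closed. Pro-survival members (MCL1, BCL-XL from the gene BCL2L1, and BCL2) bind and hold back the effectors BAX and BAK, which form pores and release cytochrome c once they are free. BH3-only members (PUMA from BBC3, NOXA from PMAIP1, BIM from BCL2L11, BMF and BIK) occupy the groove of the pro-survival proteins through a short helix, the BH3 domain, and some of them engage the effectors directly. NOXA binds mainly MCL1, whereas PUMA and BIM bind all pro-survival members. MCL1 is a short-lived protein, and BCL-XL is a main survival factor of colorectal cancer cells. Everything below is mRNA, and splice forms of opposite action, such as the long and short forms of BCL2L1 and MCL1, were counted together.

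What the members share at sequence level is the core of the BH3 domain: a leucine, any 3 residues, then glycine or alanine followed by aspartate, 6 residues in all. In the main protein-coding transcript of each gene (gencode release 44, GRCh38) this pattern was found exactly once in every member, always within a single exon. The pattern is short and was also present in 27.5% of the 13079 expressed coding sequences (10 or more normalized reads on average), so a match by itself marks no family member. The 18 coding bases are given 5′ to 3′, with the codons of the leucine and of the glycine or alanine and the aspartate in capitals.
MCL1: TTAcgacgggttGGGGAT (chr1:150578877-150578894, minus strand, exon 1 of 3)
BCL2L1: CTGagggaggcaGGCGAC (chr20:31721934-31721951, minus strand, exon 2 of 3)
BCL2: CTCcgccaggccGGCGAC (chr18:63318361-63318378, minus strand, exon 2 of 3)
BAX: CTCaagcgcatcGGGGAC (chr19:48955787-48955804, plus strand, exon 3 of 6)
BAK1: CTCgccatcatcGGGGAC (chr6:33575399-33575416, minus strand, exon 4 of 6)
BBC3: CTGcggcggatgGCGGAC (chr19:47226591-47226608, minus strand, exon 3 of 4)
PMAIP1: CTCaggagatttGGAGAC (chr18:59902673-59902690, plus strand, exon 2 of 2)
BCL2L11: TTGcggcgtattGGAGAC (chr2:111150103-111150120, plus strand, exon 3 of 4)
BMF: CTTcagtgcattGCAGAC (chr15:40104207-40104224, minus strand, exon 4 of 5)
BIK: CTGgcctgcatcGGGGAC (chr22:43127716-43127733, plus strand, exon 3 of 5)
The fifth residue was alanine in BBC3 and BMF and glycine in the other members.

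The libraries held 46390819 to 64388876 reads, and replicates differed by more than counting noise in every group. The chi-square per degree of freedom between replicates was 8.77 in untreated, 4.03 in histidine-depleted and 1.85 in tryptophan-depleted cells. The spread was thus widest in the untreated libraries, with which both depletions are compared. Values per library are given as normalized reads, the recovered reads of the 6 libraries brought to 1 scale by size factors from the median of ratios. Of 11 colon epithelial markers, 10 or more exceeded 1 CPM (counts scaled to the library total) in both libraries of each group, whereas 12 markers of other cell types summed to between 1.77 and 3.13 CPM. The summed colon markers were at 8473 to 8716 CPM in untreated, 9040 to 9463 in histidine-depleted and 11142 to 11244 in tryptophan-depleted cells, but the markers did not move together. After histidine depletion 4 of the 11 were called higher by limma and 7 lower, with KRT8 going from 186625 and 201539 to 320941 and 340439 normalized reads and LGALS4 from 54148 and 56465 to 17513 and 19660. After tryptophan depletion 6 were called higher and 2 lower, and the part of these markers in the results was not tested. Because RNA was taken from whole cultures, fewer cells that express a gene and less of its mRNA per cell cannot be told apart. Folds against untreated cells come from the deposited table of each depletion, computed on log2(normalized count + 1) and therefore understated for scarce genes, with the 95% confidence interval and the Benjamini-Hochberg adjusted p of limma over all genes tested.

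After histidine depletion 7 of the 10 members were higher than in untreated cells (MCL1, BCL2L1, BAX, PMAIP1, BCL2L11, BMF and BIK), 2 were lower (BCL2 and BBC3) and BAK1 did not pass the test. Across all 18288 genes tested, 39.1% were called higher and 38.2% lower. After tryptophan depletion 3 members were higher (BBC3, PMAIP1 and BMF), 5 were lower (BCL2L1, BCL2, BAX, BAK1 and BIK), and MCL1 and BCL2L11 did not pass, against 36.1% higher and 34.8% lower among 17960 genes. The median log2 fold change of the members was 0.68 after histidine depletion and -0.17 after tryptophan depletion, where the median of all genes tested was 0.01 in both. Changes of at least 1 on the log2 scale were seen in 5 members after histidine depletion and in 2 after tryptophan depletion, beside 32.5% and 20.5% of all genes tested. Both comparisons use the same untreated libraries.

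**Figure D1:**
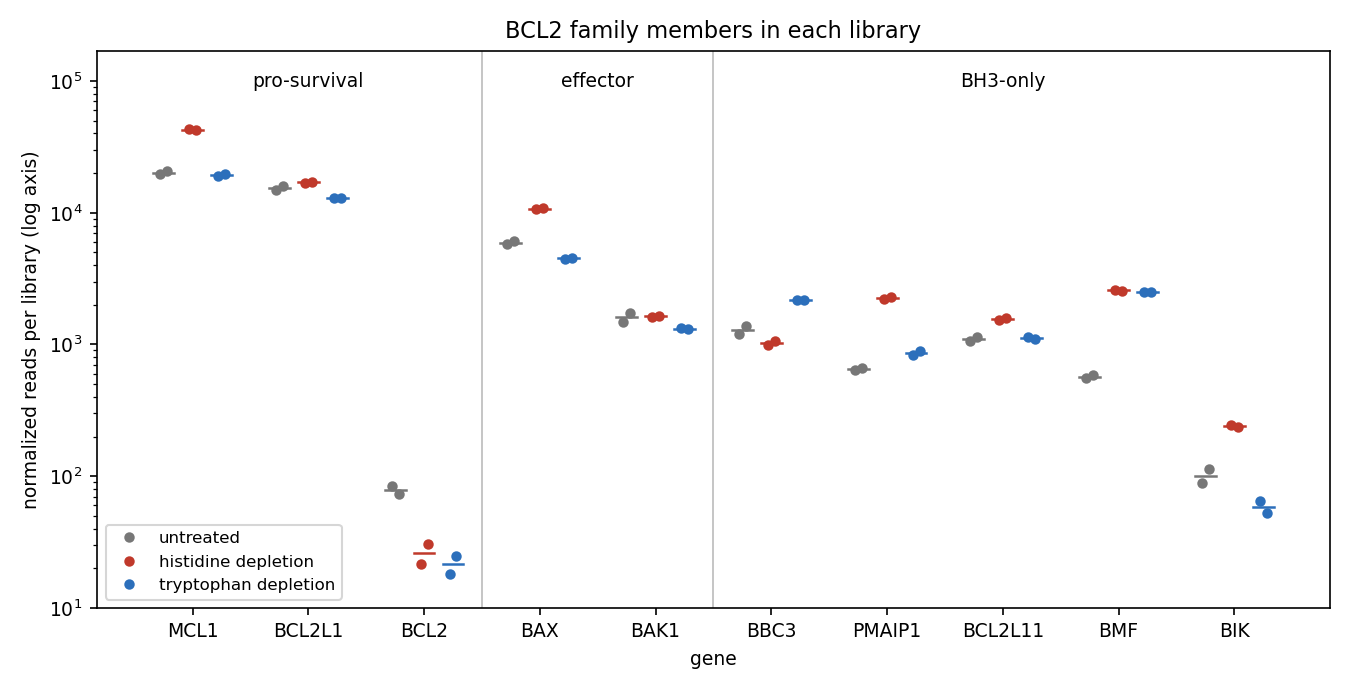
Normalized reads (log axis) of each member in the 6 libraries, with a point per library and a line at the mean of the 2 libraries of a group, ordered by role. MCL1, BAX and PMAIP1 stand highest after histidine depletion, BBC3 stands highest after tryptophan depletion, and BMF is raised in all 4 depleted libraries.

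Among the pro-survival members, MCL1 had 19548 and 20750 normalized reads in untreated cells, 43213 and 42548 without histidine, and 19035 and 19719 without tryptophan. The histidine-depleted libraries stood alone at the top, while untreated and tryptophan-depleted libraries overlapped. MCL1 was 2.14-fold higher after histidine depletion (log2 fold change 1.10, interval 0.99 to 1.21, limma adjusted p = 4.3e-15). After tryptophan depletion its log2 fold change was -0.06 with an interval of -0.16 to 0.03 (limma adjusted p = 0.25). That second result depended on the processing, since MCL1 was called lower, at -0.11, without untreated replicate 1, and likewise at -0.12 with quantile normalization and at -0.13 with reads scaled to the library total.

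BCL2L1 had 14960 and 16040 normalized reads in untreated cells, 16904 and 17212 without histidine, and 12978 and 12868 without tryptophan. The 3 groups did not overlap, with tryptophan-depleted cells lowest. After tryptophan depletion BCL2L1 fell by 0.27 on the log2 scale (interval -0.36 to -0.17, limma adjusted p = 2.4e-07). The rise after histidine depletion was small, 1.11-fold (log2 fold change 0.15, interval 0.04 to 0.26, limma adjusted p = 0.013), and its direction depended on the scaling: the log2 fold change was -0.11 with quantile normalization and -0.04 when reads were scaled to the library total. The call was also lost when limma was run without the trend (adjusted p = 0.12) and without either histidine-depleted library, at 0.16 without replicate 1 and 0.14 without replicate 2. Without untreated replicate 1 the value was smaller, at 0.09, and still called. Of the merged exons of BCL2L1, 41.3% lie opposite to the antisense gene ABALON, and although the libraries came from a kit that marks strand, whether strand was used in counting is not stated in the sources used here.

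BCL2 itself was scarce, with 84.2 and 72.6 normalized reads in untreated cells, 21.7 and 30.5 without histidine, and 18.1 and 24.7 without tryptophan. These values rest on 77 and 73, 24 and 30, and 17 and 27 reads. Untreated libraries stood apart from all 4 depleted ones, which overlapped with each other. BCL2 was 2.94-fold lower after histidine depletion (log2 fold change -1.56, interval -2.06 to -1.06, limma adjusted p = 2.8e-06) and 3.58-fold lower after tryptophan depletion (-1.84, interval -2.34 to -1.34, limma adjusted p = 8.5e-11). It was the only 1 of the 3 pro-survival members called lower in both depletions.

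Of the effectors, BAX had 5771 and 6104 normalized reads in untreated cells, 10657 and 10800 without histidine, and 4446 and 4561 without tryptophan. The groups were fully separated, with untreated cells in the middle. BAX was 1.82-fold higher after histidine depletion (log2 fold change 0.86, interval 0.76 to 0.97, limma adjusted p = 8.1e-14) and 1.32-fold lower after tryptophan depletion (-0.41, interval -0.50 to -0.31, limma adjusted p = 6.7e-14).

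BAK1, the gene of the second effector, BAK, varied little. It had 1482 and 1747 normalized reads in untreated cells, 1629 and 1647 without histidine, and 1333 and 1303 without tryptophan. Histidine-depleted libraries lay between the untreated ones, and tryptophan-depleted libraries lay below both. Its log2 fold change was 0.03 after histidine depletion (interval -0.10 to 0.17, limma adjusted p = 0.65) and -0.30 after tryptophan depletion (interval -0.41 to -0.18, limma adjusted p = 3.8e-06). The untreated replicates decided the first value, which was 0.16 and called without untreated replicate 2, -0.09 without replicate 1, and -0.15 and called lower with reads scaled to the library total. Without untreated replicate 2 the fall after tryptophan depletion was smaller, at -0.18, and still called, and over all libraries it did not pass when limma was run without the trend (adjusted p = 0.076).

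BBC3, which encodes PUMA, had 1204 and 1378 normalized reads in untreated cells, 987 and 1057 without histidine, and 2172 and 2167 without tryptophan. It was the only member of the 10 with a call in the direction opposite to BAX in both depletions. BBC3 was 1.25-fold lower after histidine depletion (log2 fold change -0.33, interval -0.47 to -0.18, limma adjusted p = 0.00021) and 1.67-fold higher after tryptophan depletion (0.74, interval 0.63 to 0.86, limma adjusted p = 2.8e-25). The size of the fall after histidine depletion depended on the scaling, from -0.21 with quantile normalization to -0.52 with reads scaled to the library total, and both were called.

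PMAIP1, which encodes NOXA, had 639 and 659 normalized reads in untreated cells, 2226 and 2283 without histidine, and 839 and 889 without tryptophan. No groups overlapped, and both depletions lay above untreated cells. The increase was 3.49-fold after histidine depletion (log2 fold change 1.80, interval 1.67 to 1.93, limma adjusted p = 3.3e-18) and 1.32-fold after tryptophan depletion (0.40, interval 0.26 to 0.54, limma adjusted p = 1.7e-07).

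BCL2L11, which encodes BIM, had 1061 and 1139 normalized reads in untreated cells, 1524 and 1581 without histidine, and 1148 and 1101 without tryptophan. Only the histidine-depleted libraries lay outside the range of the others. BCL2L11 was 1.42-fold higher after histidine depletion (log2 fold change 0.51, interval 0.38 to 0.64, limma adjusted p = 9.4e-08). With reads scaled to the library total its log2 fold change was smaller, at 0.32, and still called. After tryptophan depletion its log2 fold change was 0.02, with an interval of -0.10 to 0.15 (limma adjusted p = 0.73).

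BMF, whose protein is released from a light chain of the cytoskeletal motors under stress, had 558 and 582 normalized reads in untreated cells. It had 2600 and 2565 without histidine and 2514 in both libraries without tryptophan, so that all 4 depleted libraries lay more than 4-fold above the untreated ones. The increases were 4.55-fold (log2 fold change 2.19, interval 2.06 to 2.32, limma adjusted p = 9.6e-20) and 4.38-fold (2.13, interval 2.01 to 2.25, limma adjusted p = 8.7e-69). These were the highest fold changes of the 10 members in both depletions.

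BIK, an inducer that sits mainly at the endoplasmic reticulum, was low, with 88.5 and 113 normalized reads in untreated cells, 247 and 236 without histidine, and 65.1 and 52.2 without tryptophan. They rest on 57 to 273 reads per library, and the groups did not overlap. BIK was 2.41-fold higher after histidine depletion (log2 fold change 1.27, interval 0.97 to 1.56, limma adjusted p = 1.9e-08) and 1.72-fold lower after tryptophan depletion (-0.78, interval -1.16 to -0.40, limma adjusted p = 0.00016).

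**Figure D2:**
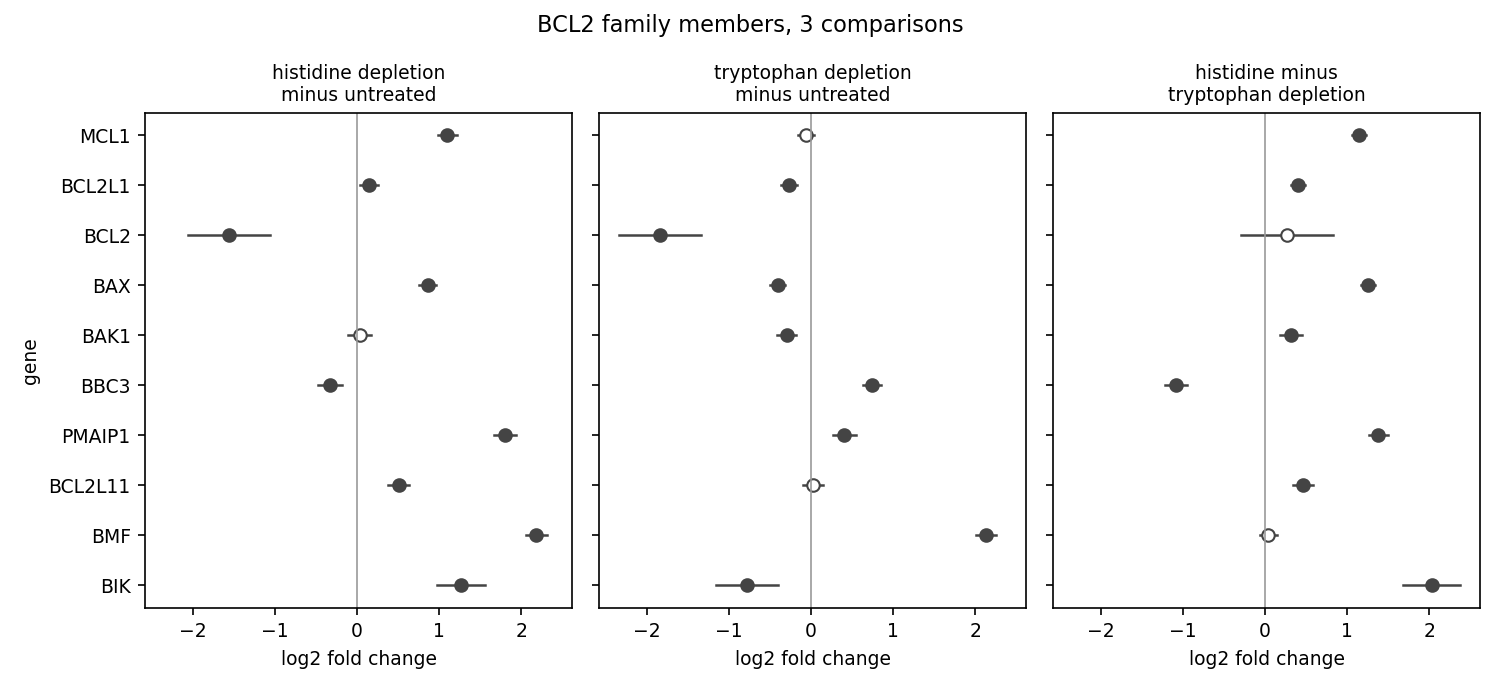
Log2 fold changes of the members with 95% confidence intervals in the 3 comparisons, where filled points passed the test and open points did not. BMF lies at 2.19 and 2.13 in the 2 depletions, BAX, BBC3 and BIK lie on opposite sides of 0, and only BBC3 is called lower after histidine than after tryptophan depletion.

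The depletions were then compared directly with each other, which asks which changes differ with the missing amino acid or its medium. Histidine-depleted cells had 7 members higher and 1 lower than tryptophan-depleted cells, beside 38.7% higher and 38% lower of 18264 genes. The widest gap was in BIK, 4.09-fold higher after histidine depletion (log2 difference 2.03, interval 1.68 to 2.38, limma adjusted p = 4.2e-09). PMAIP1 was 2.61-fold higher (1.38, limma adjusted p = 3.3e-13), BAX 2.38-fold higher (1.25, limma adjusted p = 1.4e-14) and MCL1 2.21-fold higher (1.15, limma adjusted p = 6.1e-14). So the pro-survival MCL1, its BH3-only partner NOXA and the effector BAX all stood higher at the mRNA level without histidine than without tryptophan. Smaller log2 differences in the same direction were found for BCL2L11 (0.47, limma adjusted p = 7.9e-07), BCL2L1 (0.40, or 0.24 with quantile normalization, limma adjusted p = 8.7e-08) and BAK1 (0.31, limma adjusted p = 0.00027). BBC3 alone went the other way and was 2.12-fold lower (log2 difference -1.09, interval -1.22 to -0.95, limma adjusted p = 3.3e-11). BMF differed by 0.04 with an interval of -0.07 to 0.14 (limma adjusted p = 0.49), and BCL2 by 0.27 with a wide interval of -0.30 to 0.83 (limma adjusted p = 0.37). Differences of at least 1 were seen in 5 members, beside 31.7% of all genes tested.

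To compare members with each other, reads were divided by kilobases of merged exons and by the library total, giving RPKM values. On this level scale untreated cells held most BCL2L1 (71.7 ± 1.94, SD, n = 2) and MCL1 (62.8 ± 1.25), followed by BAX (44.5 ± 0.777) and BAK1 (14.2 ± 1.33). The BH3-only levels were lower: BBC3 at 7.86 ± 0.571, PMAIP1 at 5.77 ± 0.00241, BCL2L11 at 3.17 ± 0.0875, BIK at 2.06 ± 0.313 and BMF at 2.03 ± 0.0136. BCL2 came last at 0.121 ± 0.0153. Only the neighbours BIK and BMF overlapped between libraries in this order. By coding length in place of merged exons, 5 of the 10 members kept their rank in untreated cells, and MCL1 took the first place from BCL2L1.

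By merged exons the order was another after each depletion. In histidine-depleted cells MCL1 led at 118 ± 1.88, BAX (71.0 ± 0.319) stood just above BCL2L1 (69.6 ± 0.544), and PMAIP1 reached 17.7 ± 0.229, above BAK1 at 12.7 ± 0.0378. In tryptophan-depleted cells MCL1 (57.2 ± 1.29) and BCL2L1 (56.6 ± 0.478) overlapped between libraries, and BBC3 at 12.5 ± 0.0472 stood above BAK1 at 10.95 ± 0.202. BMF was at 8.12 ± 0.118 after histidine and 8.48 ± 0.0197 after tryptophan depletion, in the sixth place in both. By coding length parts of this order changed: BCL2L1 (305.3) stood above BAX (215.2) without histidine, MCL1 (330.3 and 341.0 in the libraries) stood clear of BCL2L1 (249.7 and 246.7) without tryptophan, and BMF took rank 5 without histidine and rank 4 without tryptophan. PMAIP1 without histidine and BBC3 without tryptophan stood above BAK1 by either length. RPKM levels put the histidine-depleted libraries lower than the size factors do: when reads were scaled to the library total, the median log2 fold change of all genes was -0.18 after histidine depletion.

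Summed over the role, the BH3-only levels were 20.9 ± 0.983 in untreated, 39.6 ± 0.279 in histidine-depleted and 32.5 ± 0.0631 in tryptophan-depleted cells. The makeup of this sum differed between the depletions. PMAIP1 made up 27.6% ± 1.31 of it in untreated, 44.6% ± 0.264 in histidine-depleted and 22.4% ± 0.912 in tryptophan-depleted cells. BBC3 made up 37.6% ± 0.964, 13.9% ± 0.512 and 38.6% ± 0.0705, and BMF 9.74% ± 0.393, 20.5% ± 0.443 and 26.1% ± 0.00987. NOXA mRNA thus held the first place among the BH3-only mRNAs in histidine-depleted cells and PUMA mRNA in both other groups. By coding length the BMF share was higher in every library, at 19.7% and 18.9% in the untreated, 35.8% and 34.8% in the histidine-depleted and 43.7% and 43.5% in the tryptophan-depleted libraries. On that scale NOXA kept the first place without histidine, whereas BMF led without tryptophan and PUMA (29.9% and 31.6%) and NOXA (30.47% and 29.02%) overlapped in untreated cells. The pro-survival sum was 134.6 ± 3.18, 187.7 ± 1.32 and 113.9 ± 0.819, and the effector sum 58.7 ± 2.10, 83.7 ± 0.357 and 43.0 ± 0.301. The ratio of the BH3-only to the pro-survival sum was 0.155 ± 0.00364 in untreated, 0.211 ± 0.00297 in histidine-depleted and 0.285 ± 0.00261 in tryptophan-depleted cells. The ratio of MCL1 to BCL2L1 was 0.877 ± 0.00625, 1.70 ± 0.0402 and 1.01 ± 0.0313, and that of BAX to BAK1 was 3.16 ± 0.241, 5.60 ± 0.00846 and 2.92 ± 0.0997. Each of these sums and ratios is a description of mRNA levels with SD over n = 2 libraries, and says nothing of how much protein was made or bound.

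**Figure D3:**
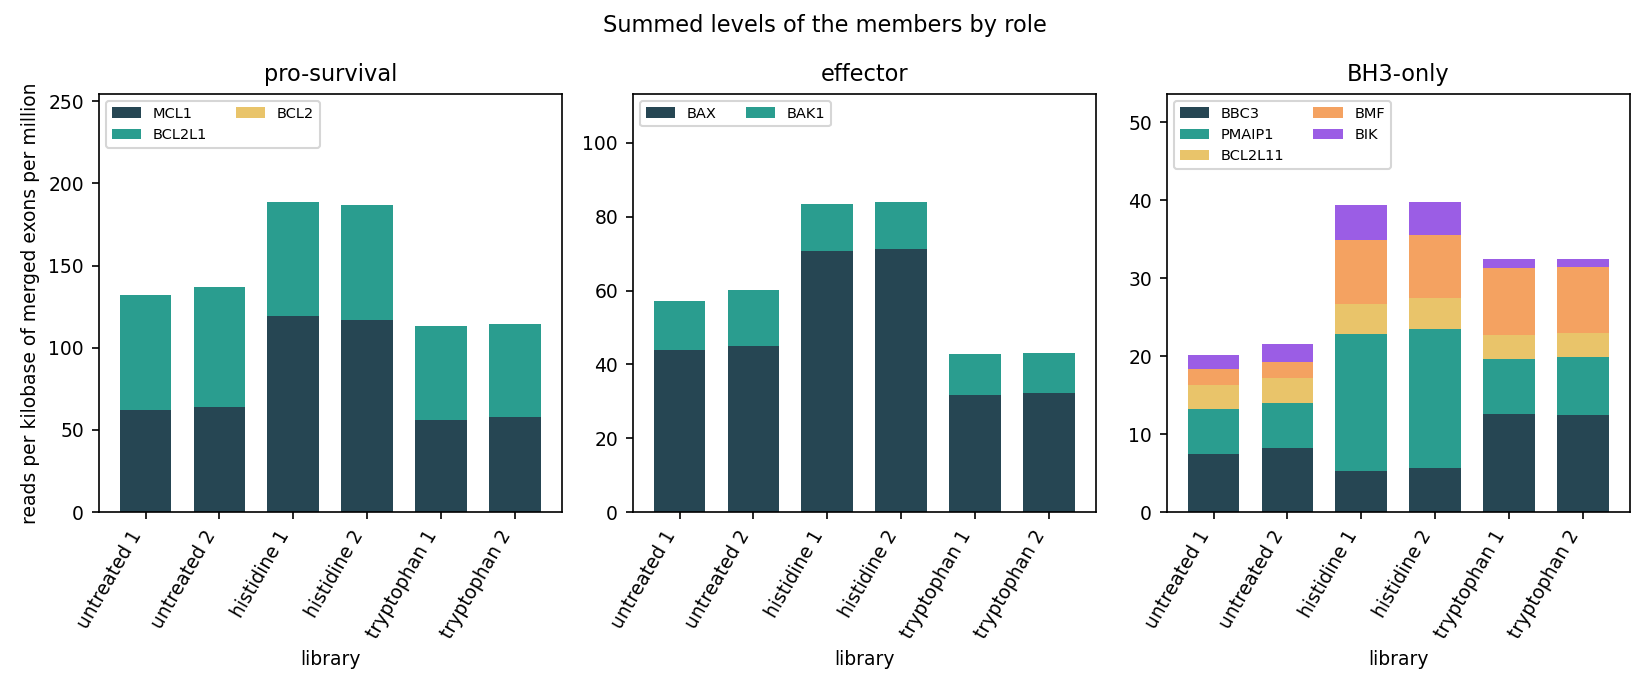
Levels of the members in RPKM (reads scaled by merged exon length and library total), stacked by role for each of the 6 libraries, with a separate linear axis from 0 for each role. The pro-survival and effector sums are highest after histidine depletion, and the BH3-only sum rises from 20.9 to 39.6 and 32.5 with PMAIP1 the widest band after histidine depletion, while BMF goes from 2.03 to 8.48 and BBC3 from 7.86 to 12.5 after tryptophan depletion.

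Since the cells lacked one of the 2 amino acids, their codons were counted in the main transcript of each member. Across the 13079 expressed coding sequences, the median share of histidine codons was 2.45% and that of tryptophan codons 1.08%. BAX has no histidine codon among 192 codons and 6 tryptophan codons, 3.12% of the sequence. PMAIP1, with 54 codons the shortest member, has neither amino acid. Only 1.54% of the expressed coding sequences lack histidine and 6.11% lack tryptophan, and short sequences lack a residue more easily. At the other end, BCL2 has 9 histidine codons among 239 (3.77%) and BMF 6 among 184 (3.26%). MCL1 has 4 histidine codons among 350 (1.14%) and BIK 2 among 160 (1.25%). Tryptophan codons made up 3.0% of BCL2L1, with 7 of 233 codons, and 2.51% of BCL2.

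**Figure D4:**
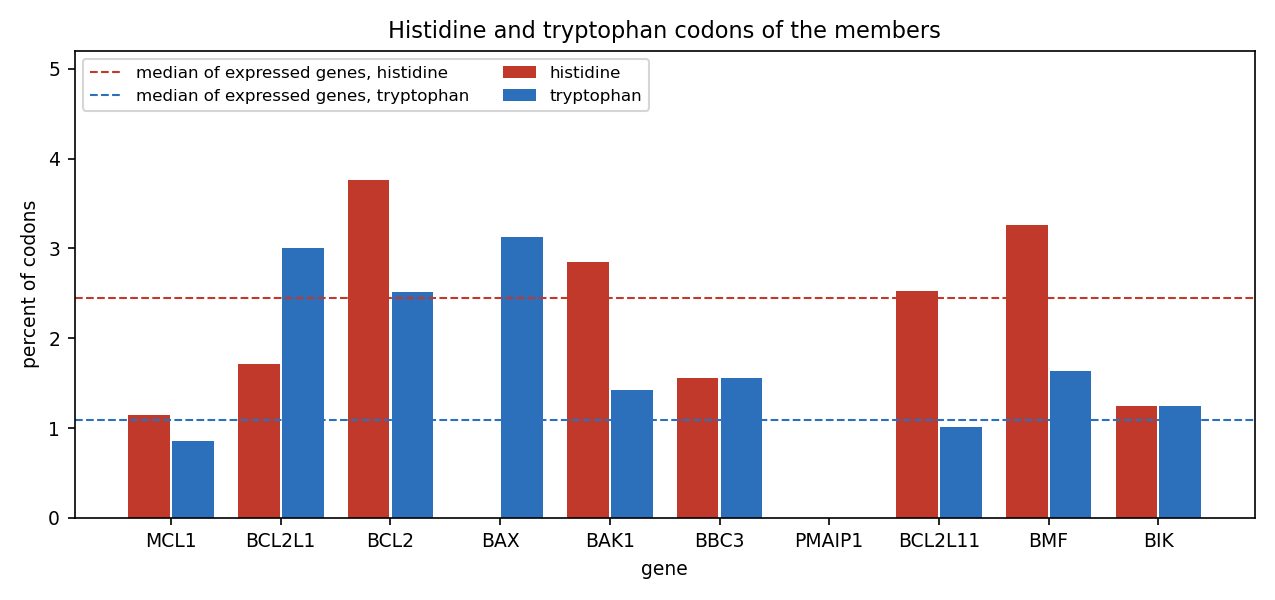
Percent of histidine and of tryptophan codons in the main coding sequence of each member, with dashed lines at the medians over the expressed genes, 2.45% and 1.08%. BAX and PMAIP1 have no histidine codon, PMAIP1 has no tryptophan codon either, and BCL2 has the highest histidine share.

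Promoter sequence, from 250 bases before to 50 bases after the start, was at hand in RefSeq (GRCh38.p14) for 8 of the 10 members, MCL1 and BIK being the others. It was searched on both strands for 5 motifs that do not contain each other: the C/EBP-ATF element TTGCATCA, the cyclic AMP response element TGACGTCA, the AP-1 element TGACTCA, the E-box CACGTG and the TATA box TATAAA. These occur in 0.866%, 1.85%, 4.95%, 7.26% and 11.5% of 35116 promoters of this length. The windows of the oppositely changed BAX and BBC3 are shown in the direction of the gene, with the motif in capitals.
BAX, E-box 138 bases before the start: tcattggacagtCACGTGacgggaccaaac (chr19:48954725-48954754, plus strand)
BAX, E-box 93 bases before the start: ggcaggtgcggtCACGTGacccggcggcgc (chr19:48954770-48954799, plus strand)
BAX, E-box 45 bases before the start: ttgcggggcggcCACGTGaaggacgcacgt (chr19:48954818-48954847, plus strand)
BAX, E-box 14 bases before the start: cagcggggctctCACGTGacccgggcgcgc (chr19:48954849-48954878, plus strand)
BBC3, E-box 232 bases before the start: atggggagatttCACGTGagatatagatta (chr19:47232882-47232911, minus strand)
BBC3, AP-1 element in reverse, 113 bases before the start: gcactggaaggTGAGTCActctggtgaggc (chr19:47232762-47232791, minus strand)
With 4 E-boxes BAX belongs to 5 promoters of the 35116 that hold at least as many, 0.0142%. BCL2L1 has 2 TATA box matches, and these 5 strings were not found in the windows of the other 5 members with a promoter. A match of letters is not evidence that a factor was bound in these cells.

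The rest of the family was read from a list of 13 further genes, of which 10 were tested. Where a pair of log2 fold changes is given from here on, the first is after histidine and the second after tryptophan depletion. After histidine depletion 3 were higher and 5 lower, beside 39.1% and 38.2% of all genes tested. After tryptophan depletion 4 were higher and 5 lower, beside 36.1% and 34.8%. The median log2 fold changes were -0.17 and -0.21. BCL2L2, the gene of the pro-survival BCL-w, was at 2762 and 2841 normalized reads in untreated cells, 2151 and 2217 without histidine, and 5169 and 5190 without tryptophan. It was lower in the first (log2 fold change -0.35, limma adjusted p = 2.5e-06) and higher in the second (0.88, limma adjusted p = 2.0e-37). Read-through transcripts with PABPN1 share 16.8% of its exons. BCL2L13, a mitochondrial receptor for mitophagy, was higher in both (1.10 and 0.43), as were BNIP3 (1.98 and 0.34) and BNIP3L (1.09 and 0.78), which also recruit the autophagy machinery to mitochondria. The annotation names 44 pseudogenes of BNIP3 that could share its reads.

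Several other family genes were lower. BID, which links death receptors to mitochondria, was lower in both, with log2 fold changes of -0.76 and -0.19 (limma adjusted p = 1.3e-11 and 0.00089). BOK, an effector-like member, was lower as well (-0.41 and -0.25). BAD, a BH3-only member controlled by phosphorylation, fell by 0.45 after histidine depletion (limma adjusted p = 0.014) and was at -0.24 after tryptophan depletion (limma adjusted p = 0.15). BCL2L14 went from 366 and 383 normalized reads to 55.1 and 53.9 and to 197 and 168, a log2 fold change of -2.75 and -1.05. BCL2L12 and BCL2L15 were lower only in the test of tryptophan depletion (-0.89 and -1.04), being at 0.07 and 0.02 after histidine depletion, and both differed between the depletions (0.94 and 1.04, limma adjusted p = 1.0e-11 and 4.8e-08). BCL2A1 and HRK had at most 2 and 1 reads in any library, below the floor of 3 reads, and BCL2L10 had 4 to 15, so none of them was tested.

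**Figure D5:**
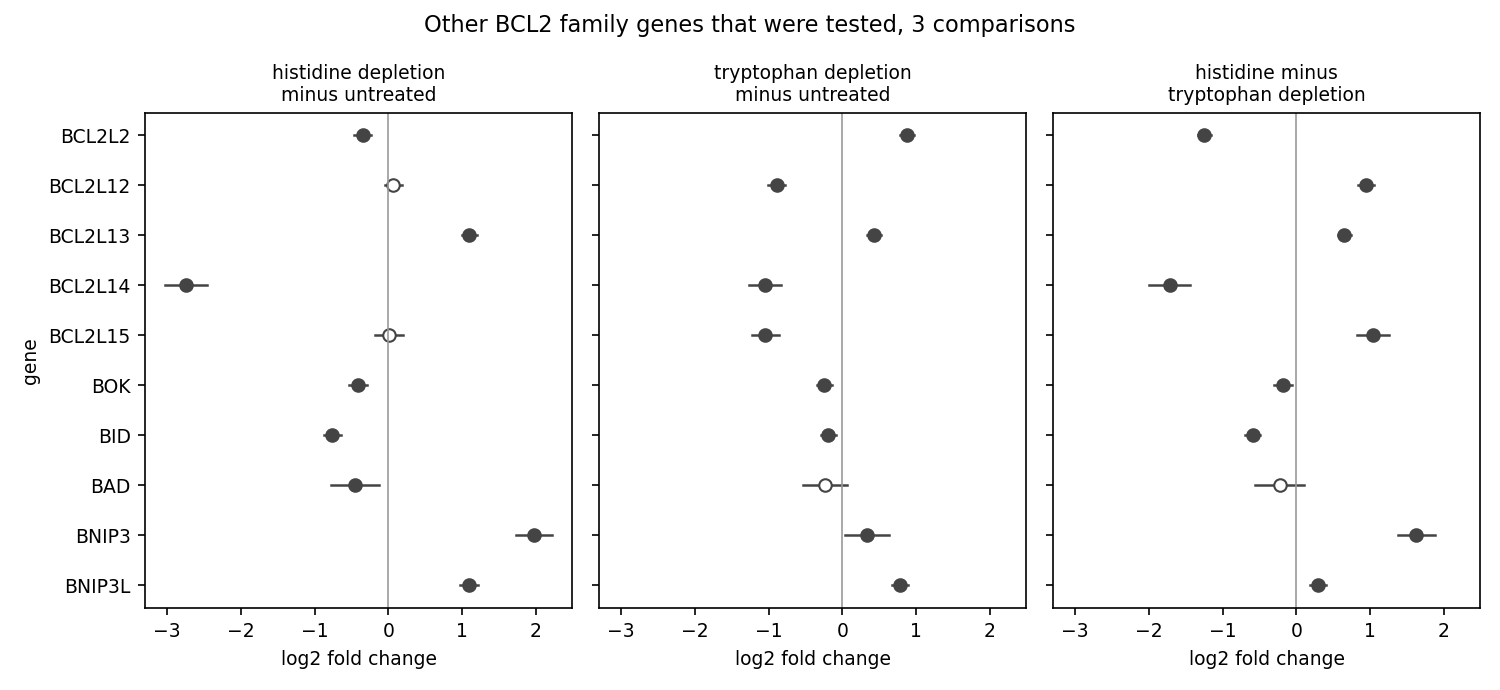
Log2 fold changes with 95% confidence intervals of the 10 tested genes among 13 further family genes, with filled points for those that passed the test. BCL2L2 changes side between the depletions (-0.35 and 0.88), while BCL2L14 is lower and BCL2L13, BNIP3 and BNIP3L are higher in both.

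Downstream of the pores stands the mitochondrial apoptosis machinery, read from 18 genes. After histidine depletion 7 were higher and 8 lower, beside 39.1% and 38.2% of all genes tested. After tryptophan depletion 4 were higher and 8 lower, beside 36.1% and 34.8%. The median log2 fold changes were -0.06 and -0.09. The 3 most raised genes were higher without histidine: CASP9, the initiator caspase, by 1.99 on the log2 scale, CYCS, which encodes cytochrome c, by 1.52, and DIABLO, which antagonizes caspase inhibitors, by 1.45. DIABLO was scarce, with 40 and 34 reads in the untreated, 126 and 97 in the histidine-depleted and 28 and 37 in the tryptophan-depleted libraries. DIABLO also shares 31.5% of its exons with other genes of the same strand, and 42 pseudogenes of CYCS are named in the annotation. In tryptophan-depleted cells CASP9 was at 0.06 and DIABLO at -0.27, neither of which passed, and CYCS fell by 0.16. APAF1, the scaffold that activates caspase-9, was at -0.08 after histidine depletion (limma adjusted p = 0.25) and fell by 1.07 after tryptophan depletion. CASP6, an executioner caspase, was lower in both depletions (-2.25 and -1.91), as was VDAC3, a channel of the outer membrane (-0.81 and -0.74). The caspase inhibitor XIAP rose by 0.55 and by 0.51, and DFFA, the inhibitor of the apoptotic nuclease, by 0.22 and by 0.18. The nuclease itself, DFFB, was lower (-1.11 and -0.37).

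Genes that control member proteins formed a list of 9. After histidine depletion 6 were higher and 2 lower, beside 39.1% and 38.2% of all genes tested. After tryptophan depletion 6 were higher and 1 lower, beside 36.1% and 34.8%. The greatest change was in USP13, a deubiquitinase that stabilizes MCL1, from 1734 ± 109.0 normalized counts to 222 ± 1.70 (SD, n = 2) after histidine depletion, a fall of 2.96 on the log2 scale. After tryptophan depletion USP13 fell by 1.36. USP9X, another deubiquitinase of MCL1, rose by 0.52 without histidine, and was at 0.09 without tryptophan (limma adjusted p = 0.080). Of the ubiquitin ligases that mark MCL1 for degradation, BTRC rose by 0.58 and by 0.89, FBXW7 by 0.33 and by 0.27, and HUWE1 fell by 0.19 after histidine depletion. That last call was lost in several alternatives, among them leaving out either histidine-depleted library and DESeq2. DYNLL1, the dynein light chain that holds BIM, rose by 0.93 and by 0.19, and DYNLL2, the related chain that holds BMF, by 0.35 and by 0.23. TPT1, a binding partner of MCL1 with 15 named pseudogenes, was at 0.08 after histidine depletion and rose by 0.69 after tryptophan depletion.

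Among 11 transcription factors known to act on member genes, 6 were higher and 4 lower after histidine depletion, and 4 were higher and 5 lower after tryptophan depletion. RELA, the NF-kB subunit, rose by 2.14 and by 0.43, and STAT3 by 1.40 and by 0.21, and both factors can drive pro-survival genes. JUN, an AP-1 subunit, rose by 1.64 after histidine depletion and fell by 0.61 after tryptophan depletion. DDIT3, which encodes the stress factor CHOP, rose by 0.69 and by 1.99, with a direct log2 difference of -1.32 between histidine-depleted and tryptophan-depleted cells. DDIT3 shares 31.6% of its exons with genes on the other strand. ATF4 was lower after histidine depletion (-0.28) and at 0.01 after tryptophan depletion (limma adjusted p = 0.86). FOXO3, an activator of BCL2L11 and BBC3, rose by 0.25 and by 0.29. TP73 was lower (-2.21 and -3.01), as was E2F1, which can activate several BH3-only genes (-1.39 and -3.48). MYC was at -0.08 after histidine depletion (limma adjusted p = 0.17) and fell by 0.81 after tryptophan depletion. These counts stand beside the shares of all genes given above, and no link from a factor to a member was tested.

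The genes most like MCL1, BAX and BBC3 over the 6 libraries were sought among the 12480 genes that averaged 100 or more normalized reads, by the root mean square difference of centred log2 values. Closest to MCL1 were SLU7 (0.02), GAR1 (0.03) and IDI1 (0.03). Closest to BAX were FKBP1A (0.02), EMG1 (0.03) and NOP56 (0.03), and closest to BBC3 were TJP3 (0.03), FAM234A (0.03) and TIGD5 (0.04).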

How the data were processed

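The members and lists were chosen with earlier results of these data known. The authors aligned reads with STAR 2.7.10a to GRCh38, counted exons with HTSeq 2.0.5 (gencode 38, versions from the submitters' processing notes) and deposited DESeq2-normalized counts, a never negative signal, in a table per depletion. Molecular identifiers, strand and multi-mapping reads in counting are not given in the sources used here. In each library 100% of the deposited values were whole multiples of a shared step (tolerance 0.01 reads), which gave the reads. Of 60676 identifiers 60357 were in gencode 44. Since the deposited unit is normalized, limma 3.58.1 in R 4.3.3 (trend, two-sided) was run on log2(value + 1) within each table, over genes averaging 10 or more, with a threshold of 0.05. The direct comparison used all 6 libraries scaled together.

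The tests were repeated with a pseudocount of 0.5 or 8, without the filter or with 50 as its limit, with no trend, quantile normalization, edgeR 4.0.16, DESeq2 1.42.0, a replicate block, other library choices, a log2 limit of 1, each library left out and, chosen after seeing the data, scaling to total reads. All members were named, with every further family gene and, from the other 3 lists, up to 3 genes per depletion and direction with the largest change. Such a gene needed a mean of at least 100 in either group compared, which DIABLO met only through the histidine-depleted libraries. Further genes of these lists (DFFA, DFFB and XIAP in both depletions, FOXO3, ATF4 and others) were given beside them after their values were seen, and some genes that the rule names are not reported here. The code was tested on simulated counts. Exact tests of 2 against 2 libraries cannot pass the threshold. Precision is limited by 2 libraries per group.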

Additional observations from a re-analysis of the deposited data

Results flagged for a closer look

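Of the 10 members, 4 were called in opposite directions after the 2 depletions, which share their untreated libraries, beside 18% of the 17470 genes tested in both. The direct comparison of the depletions passed for each of the 4, but it did so for 100% of the 3143 genes called in opposite directions, so for members picked in this way it adds nothing beyond the size of the difference. The log2 difference between histidine-depleted and tryptophan-depleted cells was 2.03 for BIK, 1.25 for BAX, 0.40 for BCL2L1 and -1.09 for BBC3 (limma adjusted p = 4.2e-09, 1.4e-14, 8.7e-08 and 3.3e-11). In each of them the 2 libraries of a depletion lay on the same side of both libraries of the other. Picking members by calls in opposite directions favours such separation, so it is no further support. For BCL2L1 the rise after histidine depletion did not hold under other scalings, so its opposite directions rest on a rise that depends on the scaling. The base medium differed between the depletions and cannot be told apart from the missing amino acid.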

How the results depend on the processing

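With a limit of 1 on the absolute log2 fold change, the members called were 4 higher and 1 lower after histidine depletion, 1 higher and 1 lower after tryptophan depletion, and 4 higher and 1 lower in the direct comparison. By coding length 5 of 10 members kept their rank of level in untreated cells. With each library left out in turn, 6 to 8 members were higher and 2 lower after histidine depletion, 3 higher and 5 to 6 lower after tryptophan depletion, and 7 higher and 1 lower in the direct comparison. The sign of 4 members with small changes turned: after histidine depletion BCL2L1 went to -0.11 with quantile normalization and -0.0416 with scaling to total reads, and BAK1 to -0.15 with scaling to total reads and to between -0.0862 and 0.156 with a library left out. After tryptophan depletion BCL2L11 went to -0.0467 with scaling to total reads and to between -0.0263 and 0.0756 with a library left out, and in the direct comparison BMF went to -0.0109 with quantile normalization and -0.063 with scaling to total reads. Of the values whose sign turned, those of BCL2L1 with quantile normalization and of BAK1 with total reads passed the threshold, and the cause was not tested. Of 160, 159 and 179 refitted values of single members, 148, 147 and 174 kept their direction and their side of the threshold. edgeR and DESeq2 gave the same numbers of members higher and lower as limma in all 3 comparisons. The replicate numbers did not pair the samples (correlations of the deviations 0.042, 0.00196 and -0.0412), and with a replicate block 7 members were higher and 2 lower after histidine depletion, 3 and 5 after tryptophan depletion, and 7 and 1 in the direct comparison. Depth limits BCL2, with 17 to 77 reads, which fell under the filter of 50 after tryptophan depletion and in the direct comparison.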

Other observations

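Within the family, the members whose centred log2 values over the 6 libraries differed least were BCL2L1 and BAK1, with a root mean square difference of 0.06. MCL1 and BAX, which act against each other at the mitochondrion, came next with 0.14, followed by BCL2L1 and BCL2L11 with 0.16. These are descriptions over 6 libraries that share their depth and their scaling.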
